A study of Oryza sativa with 7 samples.

Results

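The distal ends of rice chromosomes were described here as the first and the last 1 Mb of chromosomes 1, 2, 3, 5, 6, 7 and 8, that is 14 of the 24 ends of the 12 chromosomes. A first end ran from base 1 to base 1000000 of the MSU release 7 genome, and a last end ran 1 Mb back from the largest position listed in any library. The remaining sequence of the same 7 chromosomes is called the interior and includes their centromeres and pericentromeric heterochromatin. Whole genome bisulphite sequencing was available for 7 libraries of seedlings of 3 cultivars: IR64, sensitive to drought and salinity, Nagina 22 (N22), tolerant to drought, and Pokkali, tolerant to salinity. Each cultivar had an unstressed library from plants kept in water, called control, and IR64 and N22 had a desiccation library from seedlings laid on dry filter paper. IR64 and Pokkali had a salinity library from seedlings in 200 mM salt. Seedlings were 2 weeks old, each group was 1 library, and each control library held DNA pooled from 3 biological replicates, so that no group had a replicate of its own.

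Plant cytosine methylation is kept in different ways in different sequence contexts. In CG, which reads the same on both strands, MET1 copies the mark after replication, and in CHG (H is A, C or T) CMT3 copies it together with histone H3K9 methylation. In CHH the mark has to be set anew, by DRM2 guided by small RNAs or by CMT2 in heterochromatin. Bodies of active genes often carry CG methylation alone, whereas transposons and repeats carry all contexts. Chromosome arms of rice are rich in genes towards their tips, where tandem satellite repeats and finally the 7-base telomere repeat of plants follow.

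The deposited tables listed cytosines called methylated (mCs), with the read depth and the methylation level of each, and nothing on other cytosines. A cytosine absent from a library was therefore of unknown status. A library listed 14773140 to 18144722 mCs on the 12 chromosomes, at a mean depth of 14.2 to 19.01 reads. The libraries had been called against differing error rates. A common, stricter rate of 1% kept 92.3% of the listed mCs in the IR64 desiccation library and 100% in the N22 control library, so counts compared between libraries carry this difference.

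The ends were thinly methylated next to the interior, most of all in CHG. They made up 5.96% of the length of the 7 chromosomes and held 4.79% to 5.10% of their mCs. Over all contexts 33951 to 39200 mCs per Mb were listed in the ends and 40369 to 49343 per Mb in the interior. The CG density in the ends was 16488, 18366 and 17493 mCs per Mb in the IR64 control, desiccation and salinity libraries, 19412 and 17146 in N22 control and desiccation, and 18129 and 16685 in Pokkali control and salinity. The interior of these libraries held 18887 to 24215 CG mCs per Mb, and every library lay lower in its ends. In CHG, 8204 to 10325 mCs per Mb in the ends stood against 11502 to 14883 in the interior. In CHH the densities lay closer, at 9062 to 11219 in the ends and 9459 to 11714 in the interior.

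On the log2 scale, the density of the ends relative to the interior was -0.24 ± 0.044 for CG (SD, n = 7 libraries), -0.50 ± 0.027 for CHG and -0.078 ± 0.023 for CHH. Each ratio was below 0 in 7 of 7 libraries. An exact two-sided sign-flip test over the 7 libraries gave p = 0.0156 in each context, the smallest value 7 libraries allow, and 0.0208 after Benjamini-Hochberg adjustment over 12 tests of ends against interior. The 7 libraries come from 3 cultivars and are not independent samples, so these p-values describe the steadiness of a difference over libraries. The CG and CHH differences depended on how much of the tip was taken. Over the outer 0.5 Mb the mean log2 ratio was -0.026 for CG and 0.013 for CHH (exact sign-flip test, adjusted p = 0.307 and 0.547).

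The makeup of the methylation shifted with the density. Of all mCs in the ends, 47.3% to 49.5% were CG, 23.5% to 26.3% CHG and 24.1% to 29.3% CHH. Compared with the interior, the CHG share was lower by 4.201 ± 0.22 points (SD, n = 7) and the CHH share was higher by 3.33 ± 0.19 points, in 7 of 7 libraries each. The CG share was higher by 0.87 ± 0.29 points, likewise in 7 of 7. All 3 shifts had an adjusted p of 0.0208 by the exact sign-flip test. The CG shift turned to -0.44 points (exact sign-flip test, adjusted p = 0.0188) when the ends were taken as 2 Mb.

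Stretches methylated in CG alone, the pattern known from gene bodies, were commoner in the ends. The chromosomes were cut into bins of 100 bases, and bins with at least 3 mCs were sorted by the contexts they held. Bins with CG mCs only made up 26.02%, 24.8% and 25.5% of such bins in the ends of the IR64 control, desiccation and salinity libraries. They made up 23.5% and 24.3% in N22 control and desiccation, and 25.5% and 26.9% in Pokkali control and salinity. The interior range was 14.3% to 16.8%, so the ranges of ends and interior did not overlap. The difference was 9.68 ± 0.33 points (SD, n = 7, 7 of 7 libraries, exact sign-flip test, adjusted p = 0.0208). Bins with CG and CHG but no CHH were rarer in the ends by 7.73 ± 0.36 points, and bins with any CHH were rarer by 1.51 ± 0.40 points, with the same adjusted p. No gene annotation of this genome release was used, so these bins were not placed in genes or transposons.

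The symmetry of CG methylation was somewhat fuller in the ends. The opposite-strand cytosine of a CG mC was itself listed for 79.5% to 86.5% of plus-strand CG mCs in the ends and for 75.2% to 82.8% in the interior. Where both strands were listed, their levels differed by a median of 6.06 to 7.14 points in the ends. The positions were also shared more between libraries. For 5 pairs of libraries of 1 cultivar, 75.6% to 77.0% of CG positions listed in either library were listed in both within the ends, against 71.8% to 74.1% in the interior. For 16 pairs across cultivars the ranges were 57.5% to 67.1% and 54.0% to 64.8%. The ends were above the interior in 21 of 21 pairs. Listing depends on depth, and the mean depth at mCs in the ends was above that in the interior in every library and context (16.2 to 26.1 against 12.7 to 18.5 reads), so the part of depth in these shares was not tested.

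The methylation level, pooled as methylated reads in percent of the total depth at listed mCs, was close to that of the interior in CG and CHG. The CG level in the ends was 85.0%, 86.0% and 86.7% in the IR64 control, desiccation and salinity libraries, 88.9% and 86.9% in N22 control and desiccation, and 82.7% and 84.0% in Pokkali control and salinity. The interior values were 84.5%, 85.2%, 85.8%, 89.4%, 87.2%, 82.5% and 83.6% in that order. The mean difference of ends minus interior was 0.27 ± 0.56 points in CG (SD, n = 7, exact sign-flip test, adjusted p = 0.256) and 0.09 ± 0.34 points in CHG (adjusted p = 0.516). Neither held up against the spread between libraries. When each cytosine was given equal weight, the CG level of the ends was lower by 1.29 points (exact sign-flip test, adjusted p = 0.0188).

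The CHH level looked different at first sight, and the difference came from 2 of the 14 ends. Pooled over reads, the CHH level of the ends was 23.03%, 21.8% and 22.6% in the IR64 control, desiccation and salinity libraries. It was 36.7% and 36.2% in N22 control and desiccation and 27.5% and 25.7% in Pokkali control and salinity. The interior lay between 33.2% and 37.8% in all libraries. The mean difference was -7.98 ± 6.05 points (SD, n = 7, lower in 6 of 7 libraries, exact sign-flip test, adjusted p = 0.0375). Without the last end of chromosome 5 and the first end of chromosome 6 the ends lay higher than the interior by 3.79 points, with a range of 3.24 to 4.50 points over the 7 libraries (exact sign-flip test, adjusted p = 0.0170). These 2 ends were chosen after seeing the data, and the interior kept its own deep sites in this comparison. Without mCs deeper than the 99th percentile of their library, in ends and interior alike, the difference was 1.19 points (exact sign-flip test, adjusted p = 0.0170). With equal weight for each cytosine it was 0.48 points (exact sign-flip test, adjusted p = 0.0511). Leaving out any 1 library other than N22 desiccation raised the adjusted p of the pooled difference to 0.075.

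**Figure D1:**
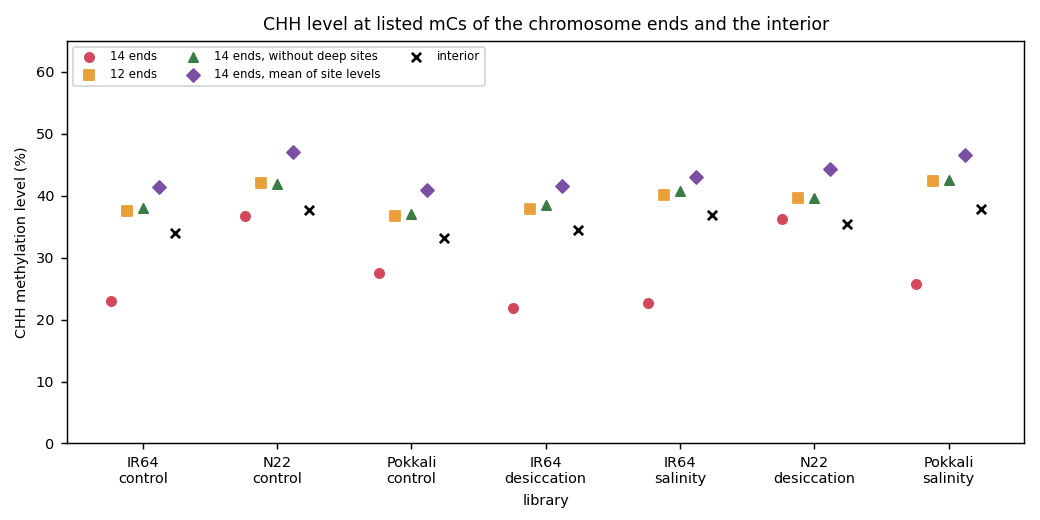
CHH methylation level in percent (y axis) for each of the 7 libraries (x axis): pooled over the 14 ends (circles), over the 12 ends without the last end of chromosome 5 and the first end of chromosome 6 (squares), over the 14 ends without deep sites (triangles), as the mean over single cytosines of the 14 ends (diamonds), and pooled over the interior (crosses). The circles lie at 21.8% to 23.03% in the IR64 libraries and at 36.2% and 36.7% in the N22 libraries, and the squares lie above the crosses in every library. The crosses include deep sites, so triangles and diamonds are not set against a like interior. That interior, not drawn, lies at 35.6% to 41.1% without deep sites and at 40.3% to 46.2% as the mean over single cytosines.

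The 2 ends held cytosines of extreme depth. In the last end of chromosome 5, sites deeper than the 99th percentile of the library took 72.8%, 76.1% and 79.0% of all reads in the IR64 control, desiccation and salinity libraries, 44.5% and 29.7% in N22 control and desiccation, and 64.6% and 73.4% in Pokkali control and salinity. In the first end of chromosome 6 the shares were 80.1%, 81.5%, 84.1%, 54.4%, 43.4%, 73.3% and 80.8% in the same order. The deepest cytosine of each end was covered by 598 to 4931 reads on chromosome 5 and by 1539 to 5531 reads on chromosome 6. N22 was the lowest cultivar in both ends and IR64 the highest in all but the comparison of IR64 control with Pokkali salinity. The deep sites lay near the tips, with medians of 52.4 to 67.9 kb from the tip on chromosome 5 and 56.6 to 64.1 kb on chromosome 6. They were methylated at 87.1% to 88.96% in CG, 61.3% to 66.3% in CHG and only 4.7% to 9.6% in CHH. A smaller group of deep sites, 222 to 647 per library, lay about 15 kb from the tip of the last end of chromosome 8 and took 5.56% to 25.4% of its reads.

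The methylation of these 2 ends was spaced in a regular way. Over the outer 200 kb, the distances between plus-strand CG mCs were counted from 200 to 1199 bases, and the number of pairs at each distance was divided by the mean over all distances. The distance with the most pairs was 354 bases in both ends and in all 7 libraries. At this distance pairs were 6.90 to 7.55 times the mean in the last end of chromosome 5 and 7.57 to 8.75 times the mean in the first end of chromosome 6. In the other 12 ends the highest ratio at any distance was at most 2.64. Nearest in distance was the last end of chromosome 8, with its most frequent spacing at 352 to 355 bases and 1.57 to 2.12 times the mean. A spacing of this kind shows that methylated positions recur with a fixed period along the reference. The sequence itself was not read here.

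**Figure D2:**
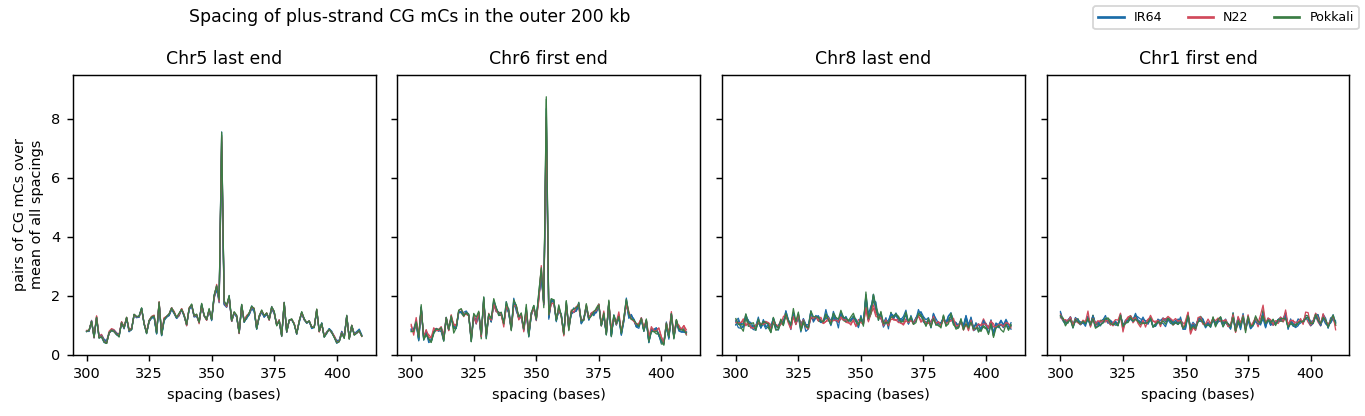
Number of pairs of plus-strand CG mCs at each spacing in bases (x axis, a window around the top spacing), divided by the mean over all spacings (y axis), in the outer 200 kb of 4 ends, with 1 line per library coloured by cultivar. A single tall peak stands at 354 bases in the last end of chromosome 5 and the first end of chromosome 6, a low one in the last end of chromosome 8, and none in the first end of chromosome 1.

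The repeated positions differed from their neighbours in depth far more than in CG level. In IR64 control, the 6589 CG mCs of the last end of chromosome 5 with a partner 354 bases away had a median depth of 46 reads and a level of 87.6%. The 6356 CG mCs of the same outer stretch without such a partner had a median depth of 16 reads and a level of 87.1%. In the first end of chromosome 6 the median depths were 54 and 14 reads, at levels of 88.1% and 88.1%. In CHH, the mean over single cytosines was 11.6% with a partner and 18.4% without in the end of chromosome 5, and 11.6% and 29.3% in the end of chromosome 6. CHH mCs of low level are called only where reads are many, so depth and level cannot be told apart at these positions.

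CG and CHG methylation became denser towards the tip. The outer 200 kb of the ends were set against the stretch from 800 to 1000 kb. The log2 ratio of the densities was 0.75 ± 0.032 for CG (SD, n = 7), 1.12 ± 0.078 for CHG and 0.19 ± 0.13 for CHH, above 0 in 7 of 7 libraries each. All had an adjusted p of 0.0156 by the exact sign-flip test over 6 gradient tests, the smallest value possible. In the outermost 100 kb, 27026, 30824 and 29021 CG mCs per Mb were listed in the IR64 control, desiccation and salinity libraries, 33979 and 28960 in N22 control and desiccation, and 29497 and 28465 in Pokkali control and salinity. From 900 to 1000 kb the libraries listed 13515 to 15674 per Mb, so the ranges did not overlap.

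The tip was also methylated to a higher level in CG and CHG. The CG level of the outer 200 kb was above that of the inner 200 kb by 5.53 ± 1.97 points (SD, n = 7) and the CHG level by 3.02 ± 1.79 points. The CHH level was lower in the outer stretch by 25.0 ± 6.504 points. All 3 had 7 of 7 libraries in 1 direction (exact sign-flip test, adjusted p = 0.0156). Most of the CHH difference lay in the 2 ends just described: without them it was -5.44 points, and without deep sites in all 14 ends it was -6.90 points (exact sign-flip test, adjusted p = 0.0188 for each). Over the other 12 ends the CHH level of the outermost 100 kb was 31.0% to 34.1% in the libraries, and 38.8% to 46.3% from 900 to 1000 kb. Over mCs listed in all 7 libraries the CHG difference turned to -4.98 points (exact sign-flip test, adjusted p = 0.0156).

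A part of the rise in density lay in the 2 ends with the 354-base spacing. With all 14 ends the ratio of outer to inner density was 1.63 to 1.73 in CG, 2.02 to 2.30 in CHG and 1.01 to 1.301 in CHH over the libraries. Without these 2 ends it was 1.29 to 1.35 in CG and 1.42 to 1.52 in CHG. The CHH ratio without them was 0.952 to 1.104, and its mean log2 value of 0.016 no longer stood out from 0 (exact sign-flip test, adjusted p = 0.625).

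**Figure D3:**
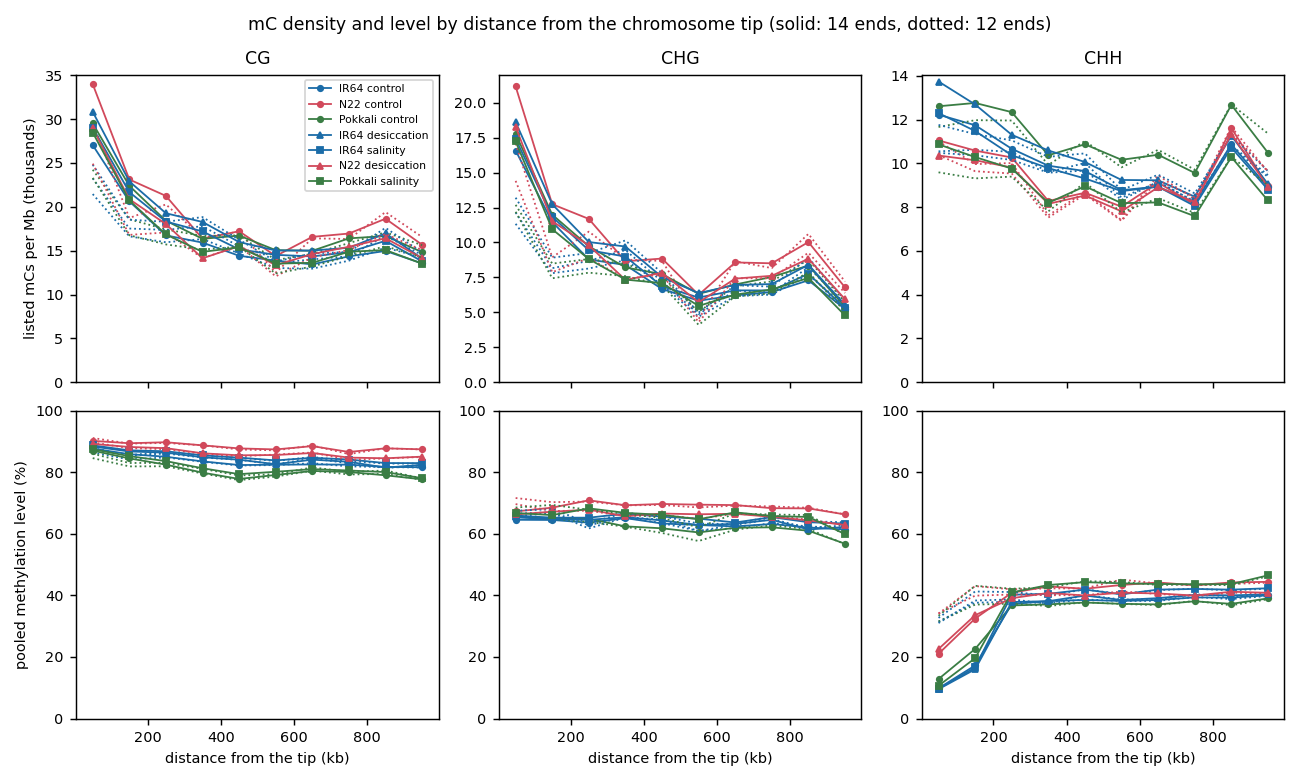
Listed mCs per Mb in units of 1000 (upper panels) and pooled methylation level in percent (lower panels) by distance from the tip in kb, for CG, CHG and CHH, with 1 line per library, solid for 14 ends and dotted for the 12 ends without the last end of chromosome 5 and the first end of chromosome 6. CG density falls from 27026 to 33979 per Mb in the outermost step to 13515 to 15674 per Mb in the innermost, and the CHH level of the 14 ends is lowest in the outermost step.

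The single ends did not all follow this course. In CG, 8 of 14 ends were denser in the outer than in the inner 200 kb in all 7 libraries, and 1 end, the first of chromosome 8, was less dense in all 7, at 0.77 to 0.93 times the inner density. In CHG the numbers were 8 and 1, and in CHH 7 and 5. The steepest course was that of the last end of chromosome 5, with 5.51 to 6.28 times the CG density and 8.10 to 12.8 times the CHG density in the outer stretch. The first end of chromosome 6 had 2.84 to 4.05 times and 5.63 to 9.10 times. The last ends of chromosomes 2, 7 and 8 and the first end of chromosome 3 had CG ratios of 1.91 to 2.12, 1.56 to 2.12, 1.98 to 2.81 and 1.71 to 2.53. In the last end of chromosome 2 the CHG ratio was 3.49 to 4.67. CHG and CHH went apart in several ends: in the last end of chromosome 7 the CHG ratio was 1.62 to 2.46 and the CHH ratio 0.59 to 0.87.

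The ends differed in the number of CG mCs they held. The last end of chromosome 5, chr5:28957430-29957429, held the most, with 26243, 28677 and 27575 in the IR64 control, desiccation and salinity libraries, 30658 and 27582 in N22 control and desiccation, and 28420 and 27078 in Pokkali control and salinity. Its lowest library lay above the highest library of any other end. The first end of chromosome 6 followed with 18292 to 21589 and a median of 19857, and the first end of chromosome 7 with 15974 to 24196 and a median of 18545. The ranges of these 2 overlapped. At the other end of the order, the last end of chromosome 6 held 12212 to 14428 with a median of 13418, the last end of chromosome 2 held 14166 to 19579 with a median of 14861, and the last end of chromosome 1 held 13414 to 16611 with a median of 14880. The medians of the other 8 ends ran from 14948 to 18022, and neighbours in this order overlapped.

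The name euchromatic, which the ends were chosen under, could be checked only against their density. Of the 217 windows of 1 Mb in the interior, the median end had more CG mCs than 28.1% to 32.7%. Of the 14 ends, 11 to 13 lay below the median interior window, depending on the library. The other 1 to 3 ends lay above it, and 11.1% to 19.8% of the interior windows held more CG mCs than the last end of chromosome 5.

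**Figure D4:**
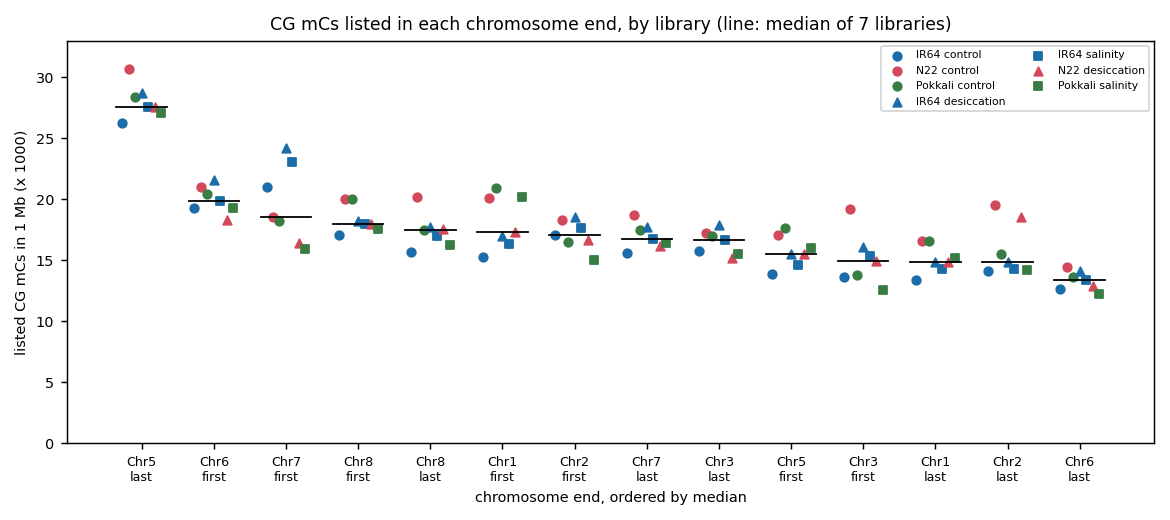
Number of CG mCs listed in each of the 14 ends, in units of 1000, with 1 point per library and a line at the median of the 7 libraries. The last end of chromosome 5 lies apart at 26243 to 30658, and the ends of chromosomes 7 (first), 1 (first) and 2 (last) show cultivars standing apart from each other.

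At the very tip of 5 ends, CHH mCs recurred every 7 bases on 1 strand. The strand examined was the plus strand at first ends and the minus strand at last ends, over the outer 3 kb. An end was counted if at least 30 CHH mCs were listed there in each of the 7 libraries and at least 50% of them had another at a distance of 7 bases. In the first end of chromosome 5, 51 to 89 CHH mCs were listed, of which 85.7% to 96.6% had such a partner, at a pooled level of 46.3% to 57.2%. In the last end of chromosome 6 there were 36 to 61, of which 85.7% to 96.6% had a partner, at a level of 47.8% to 61.5%. In the last end of chromosome 7 there were 61 to 113, of which 87.6% to 95.9% had a partner, at the highest level of the 5, 63.4% to 71.0%. The first ends of chromosomes 2 and 8 had 66.2% to 90.9% and 65.3% to 79.1% with a partner.

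The strand bias of these tips was nearly complete in 3 of them. Summed over the 7 libraries, the first end of chromosome 5 listed 482 CHH mCs on the plus strand and 4 on the minus strand. Chromosome 6 listed, at its last end, 1 on the plus and 362 on the minus strand, and the last end of chromosome 7 listed 5 and 612. The sums were 652 and 159 in the first end of chromosome 2, and in the first end of chromosome 8, with 993 on the plus strand, the minus strand likewise held the smaller part. The 7-base period and the change of strand between first and last ends are those of the plant telomere repeat, whose cytosines all lie on 1 strand. The repeat was not read from the sequence, so the match rests on spacing and strand alone. The levels of these 3 tips and of the first end of chromosome 2 (41.5% to 48.9%) lay above the range of the interior, and that of the first end of chromosome 8 (34.3% to 42.6%) overlapped with it. Median depth at these CHH mCs was 9 to 23 reads in the last end of chromosome 7 and 22.5 to 110.5 at the other tips with the spacing. For CHH mCs of the interior it was 11 to 16 reads, and the part of depth in these levels was not tested. The other 9 ends did not meet the count or the spacing. In the last end of chromosome 5 the outer 3 kb held 28 to 96 CHH mCs, of which at most 11.8% had a partner at 7 bases.

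Cultivars differed in the CG level of the ends. The 2 N22 libraries lay at 88.9% and 86.9%, the 3 IR64 libraries between 85.0% and 86.7%, and the 2 Pokkali libraries at 82.7% and 84.0%. The cultivars did not overlap, and cultivar took 82.9% of the sum of squares between libraries (exact permutation test over 210 assignments, p = 0.00952, adjusted p = 0.0429 over 9 tests). The adjusted p rose to 0.0857 without the 2 ends with the 354-base spacing, where cultivar took 90.5%, and to between 0.06 and 0.2 on leaving out any 1 library. In CHG cultivar took 55.7% (exact permutation test, adjusted p = 0.343). Stress libraries are part of each cultivar here, so the spread within a cultivar includes the treatment.

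The CHH level separated the cultivars with the deep sites included and not without them. Pooled over the ends, IR64 lay at 21.8% to 23.03%, Pokkali at 25.7% and 27.5% and N22 at 36.2% and 36.7%, and cultivar took 98.97% of the sum of squares (exact permutation test, p = 0.00952, adjusted p = 0.0429). Without the last end of chromosome 5 and the first end of chromosome 6 cultivar took 21.1% (exact permutation test, adjusted p = 0.714). Without sites beyond the 99th percentile of depth it took 12.4% (exact permutation test, adjusted p = 0.733). The order of the cultivars in CHH level was the reverse of their order in the share of reads at deep sites.

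Density in the ends did not separate the cultivars. Cultivar took 15.4% of the sum of squares in CG, 45.0% in CHG and 25.6% in CHH (adjusted p = 0.705, 0.429 and 0.621 by the exact permutation test). The ratio of ends to interior followed the cultivar more closely. For CG it was 0.873, 0.855 and 0.863 in IR64 control, desiccation and salinity, 0.802 and 0.822 in N22 control and desiccation, and 0.848 and 0.860 in Pokkali control and salinity. N22 lay below all others and IR64 overlapped with Pokkali. Cultivar took 88.4% in CG, 94.1% in CHG and 89.4% in CHH, and none passed the adjustment (exact permutation test, adjusted p = 0.0857, 0.0571 and 0.103).

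Between the control libraries, N22 held 17.7% more CG mCs than IR64 in the ends and 28.2% more in the interior. In CHG the differences were 24.5% and 28.3%, and in CHH N22 held fewer, by -5.17% and -2.07%. Pokkali held 9.96% more CG mCs than IR64 in the ends and 13.2% more in the interior. These are differences of single libraries with no test.

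Some stretches of the ends were listed as methylated in 1 cultivar only. A bin of 100 bases was counted when both libraries of a cultivar under matched treatments listed at least 3 mCs in it and neither library of the other cultivar listed any. For N22 and Pokkali, the control and stressed library of each was used. Absence from the tables can mean no methylation, too few reads, or sequence that is missing from the cultivar, and these cannot be told apart here. In the ends 6.82% of bins methylated in N22 or IR64 were listed in N22 only and 6.38% in IR64 only, against 7.17% and 5.55% in the interior. For Pokkali and IR64 the shares were 5.17% in Pokkali only and 4.42% in IR64 only, against 4.59% and 3.68%. For N22 and Pokkali they were 6.13% in N22 only and 5.64% in Pokkali only, against 6.37% and 5.28%.

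The 1-cultivar bins were gathered in blocks of single ends. In the first end of chromosome 1, 558 of 3427 bins (16.3%) were listed in N22 and not IR64, and 552 of 3443 (16.0%) in Pokkali and not IR64. The stretch from 900 to 1000 kb stood out in that end, with 54.7% of bins in N22 only and 50.9% in Pokkali only. In the first end of chromosome 7 the difference went the other way, with 638 of 4045 bins (15.8%) listed in IR64 and not N22 and 533 of 3994 (13.3%) in IR64 and not Pokkali. Chromosome 2 had, in its last end, 451 of 3105 bins (14.5%) in N22 and not IR64 and 439 of 3096 (14.2%) in N22 and not Pokkali. Between 400 and 500 kb from its tip these shares were 49.3% and 56.1%. In the first end of chromosome 5, from 700 to 800 kb, 39% of bins were missing from IR64 against N22 and 40.7% against Pokkali, while N22 and Pokkali differed in 2.73% and 0.993%. In CG mC number, the last end of chromosome 2 held 19579 and 18588 in the N22 libraries and 14166 to 15520 in the other 5. The desiccation libraries of N22 and IR64 held nearly equal numbers in the first end of chromosome 5, 15501 and 15533.

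Differentially methylated regions (DMRs) were called in bins with at least 3 mCs listed in both libraries. Reads were summed over these shared mCs, Fisher's exact test (two-sided) was applied to the sums, and a DMR had an adjusted p of at most 0.01 over all tested bins and a difference of at least 20 points. Such a test compares the reads of 2 libraries, not 2 conditions, and a read over several mCs was counted at each, which can make the p-values too small. In the ends 1531 of 32900 tested bins (4.65%) were DMRs between N22 and IR64 control, where 3.79% of all bins tested in the genome were. Between Pokkali and IR64 control 2073 of 35488 (5.84%) were called, against 4.47% in the genome. Between N22 and Pokkali control 2399 of 34902 (6.87%) were called, against 5.32%. The share of the ends was above that of the genome in each. For the stressed pairs it was 1404 of 33594 (4.18%) between N22 and IR64 desiccation, against 3.36%, and 1613 of 33521 (4.81%) between Pokkali and IR64 salinity, against 3.58%. Over 9 ways of calling DMRs and these 5 comparisons the ends lay above the genome in 43 of 45.

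The direction was that of the cultivar levels in CG. N22 was higher in 1287 of the 1531 DMRs of the ends against IR64 (84.1%, 95% Wilson interval 82.1% to 85.8%). In the genome 3.18% of tested bins were called higher in N22 and 0.615% lower. Pokkali was higher in 715 of 2073 against IR64 (34.5%, interval 32.5% to 36.6%), with 1.67% of tested bins called higher and 2.81% lower in the genome. N22 was higher in 2120 of 2399 against Pokkali (88.4%, interval 87.0% to 89.6%), with 4.67% and 0.65% in the genome. Between the stressed libraries 1025 of 1404 were higher in N22 than in IR64 (73.0%), with 2.46% higher and 0.903% lower in the genome, and 586 of 1613 were higher in Pokkali than in IR64 (36.3%), with 1.4% and 2.18% in the genome. The intervals cover counting error only. The direction was the same in all 14 ends for N22 against IR64 and for N22 against Pokkali. For Pokkali against IR64 the first end of chromosome 2 stood alone, with 142 of its 209 DMRs higher in Pokkali. CHH went another way. Its pooled level in the ends was higher in Pokkali than in IR64, by 4.47 points in the control and 3.08 points in the salinity libraries. With CHH mCs alone, most DMRs between the Pokkali and IR64 salinity libraries were higher in Pokkali.

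The ends were unequal in DMRs. The lowest share was that of the last end of chromosome 5 in all 3 control comparisons, 1.84% for N22 against IR64, 2.90% for Pokkali against IR64 and 3.16% for N22 against Pokkali. The next lowest were the last end of chromosome 8 with 3.32% and 4.09% in the first 2 of these, and the last end of chromosome 7 with 4.62% in the third. The highest shares for N22 against IR64 were 8.23% in the first end of chromosome 2 and 6.79% in the first end of chromosome 7. For Pokkali against IR64 they were 7.98% in the first end of chromosome 2 and 7.44% in the last end of chromosome 1. For N22 against Pokkali they were 9.89% in the first end of chromosome 7 and 8.76% in the last end of chromosome 3. Against the genome shares given above, 10, 12 and 12 of the 14 ends lay higher.

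**Figure D5:**
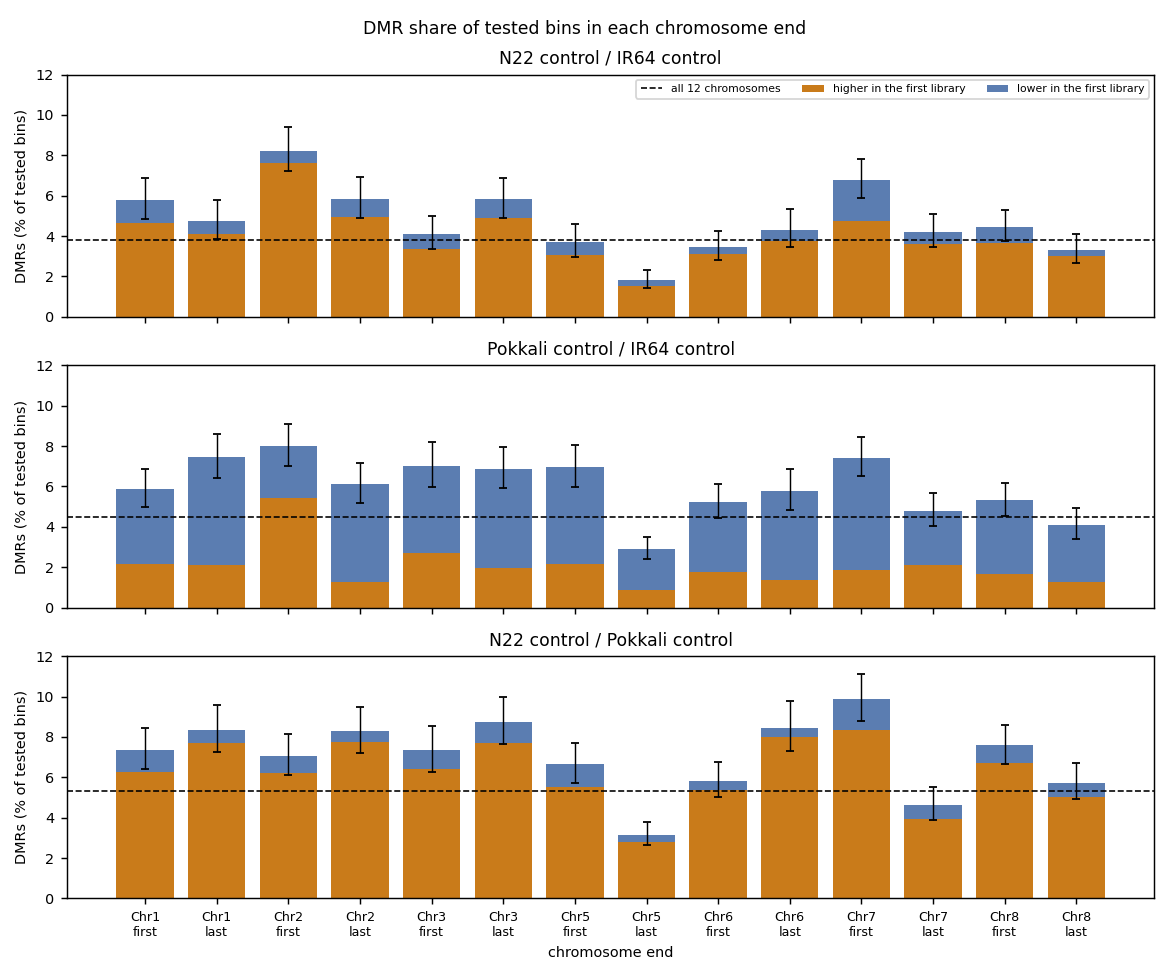
Percent of tested bins called as DMRs in each of the 14 ends for the 3 comparisons of control libraries, split by direction, with 95% Wilson intervals of the total as error bars and the share in the genome as a dashed line. The last end of chromosome 5 is lowest in all 3 at 1.84%, 2.90% and 3.16%, and the first ends of chromosomes 2 and 7 reach 8.23% and 9.89%.

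DMRs between cultivars thinned out towards the tip, opposite to mC density. In the outer 200 kb 3.41% of tested bins were DMRs between N22 and IR64 control and 5.34% were between 800 and 1000 kb from the tip. For Pokkali against IR64 the shares were 4.34% and 7.24%, and for N22 against Pokkali 5.11% and 8.82%. Without the last end of chromosome 5 and the first end of chromosome 6 the outer shares were 4.30%, 5.32% and 6.32% and the inner 5.35%, 7.30% and 8.75%. The fall was therefore smaller without these 2 ends and kept its direction. Between a stressed library and its control the DMRs were few and the order varied. In IR64 desiccation 13 of 9937 tested bins were called in the outer stretch (0.131%) and 2 of 6769 in the inner (0.0295%), against 0.0628% in the genome. In IR64 salinity these were 6 of 9839 (0.0610%) and 2 of 6734 (0.0297%), against 0.0528%. In N22 desiccation they were 8 of 9982 (0.0801%) and 11 of 7132 (0.154%), against 0.0948%. In Pokkali salinity they were 20 of 9894 (0.202%) and 41 of 6912 (0.593%), against 0.287%. Together the 12 ends had 5.14%, 6.27% and 7.46% of bins called in the 3 comparisons.

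Differences between cultivars were found again in the stressed libraries. Of the 1531 DMRs of the ends between N22 and IR64 control, 757 were also DMRs between the desiccation libraries, which is 49.4% of the first list and 53.9% of the second. All 757 had the same sign. Of the 2073 DMRs between Pokkali and IR64 control, 969 were also DMRs between the salinity libraries (46.7% and 60.1% of the lists), again all with the same sign. Among control DMRs that could be tested in the stressed pair, 94.6% of 1357 and 96.1% of 1679 had a difference of the same sign. In the genome these shares were 95.1% and 95.2%, close to those of the ends. In the genome the shared parts were 47.4% and 52.3% for N22 and 43.98% and 58.3% for Pokkali. The control and stressed libraries are separate libraries.

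Single bins show what these differences look like. The named bins were the DMRs of largest difference where each of the libraries compared had at least 50 reads over the shared mCs, 2 in each direction for N22 and Pokkali against IR64 that were also DMRs in the stressed pair, and 1 in each direction otherwise. In the bin chr3:407801-407900, in the first end of chromosome 3, the level over 3 shared CG mCs was 100% of 90 reads in N22 control (95% Wilson interval 95.9% to 100%) and 17.9% of 112 reads in IR64 control (11.9% to 25.98%), a difference of 82.1 points (Fisher's exact test, adjusted p = 4.4e-35). Over all mCs listed in that bin, the level was 27.3% and 22.0% in IR64 desiccation and salinity, 96.7% in N22 desiccation and 89.2% and 84.9% in Pokkali control and salinity. IR64 thus stood apart from both other cultivars, in all 3 of its libraries.

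The bin chr2:625601-625700 had the same course. Its 4 CG mCs, listed in all 7 libraries, had levels of 21.5%, 28.7% and 32.0% in IR64 control, desiccation and salinity, of 91.9% and 95.8% in N22 control and desiccation, and of 96.0% and 93.6% in Pokkali control and salinity. The control difference of Pokkali minus IR64 was 74.5 points (Fisher's exact test, adjusted p = 5.8e-28). IR64 was likewise the low cultivar in chr7:28811401-28811500. There it lay at 18.4%, 20.5% and 31.8% over all listed mCs and listed CG alone, while N22 and Pokkali lay at 66.3% to 74.1% and also listed 3 or 4 CHG mCs.

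IR64 was the high cultivar in chr2:34964001-34964100, with 88.4%, 88.8% and 86.1% in its 3 libraries. N22 control and desiccation lay at 17.5% and 19.8% there, and Pokkali control and salinity at 25.3% and 30%, in CG mCs alone. In chr5:161501-161600 IR64 lay at 89.8%, 89.2% and 84.4% with 10 CG mCs in each library, and N22 at 16.3% and 14.01% with 4 and 5. Pokkali control listed none there and Pokkali salinity listed 2. In chr3:35595001-35595100 IR64 lay at 91.6%, 94.0% and 86.2% and Pokkali at 19.7% and 23.1%, and N22 listed no mC.

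In 2 bins N22 listed more CHG mCs than the other cultivars. In chr2:35500001-35500100 both N22 libraries listed 17 mCs, 6 CG and 11 CHG, at 89.9% and 88.9%, IR64 listed 4 or 5 mCs at 16.5% to 19.4%, and Pokkali listed none. In chr1:42575101-42575200 N22 listed 6 CG mCs with 12 and 7 CHG mCs, and IR64 and Pokkali listed CG alone. The bin had been chosen for Pokkali against IR64, which lay at 15.4% and 16.4% in Pokkali control and salinity and at 85.5% to 88.9% in IR64. For N22 against Pokkali control, chr2:35051901-35052000 was higher in N22 by 81.4 points over 4 shared mCs (Fisher's exact test, adjusted p = 1.4e-23) and chr7:28865301-28865400 was lower in N22 by -79.6 points (adjusted p = 6.6e-29).

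Under stress the number of mCs listed in the ends went up in IR64 and down in the tolerant cultivars. It was 9.96% higher in IR64 desiccation and 3.63% higher in IR64 salinity than in IR64 control, and it changed by -9.72% in N22 under desiccation and by -11.5% in Pokkali under salinity. The interior changed by 11.3%, 3.80%, -11.1% and -11.9%, so the ends followed the interior. These are single libraries with no test, and both IR64 values share the control. With a common error rate of 1% the 4 changes of the ends were 9.44%, 4.92%, -13.0% and -12.4%. At a minimum of 10 reads the IR64 salinity value was -4.51%, the opposite sign, and the Pokkali salinity value was -28.7%. In Pokkali salinity the fall in listed mCs was greatest in CHH, at -19.2% in the ends, with -7.97% in CG and -8.89% in CHG. The CHH change in the interior was -19.25%. Median depth at CHH mCs of the ends was 11 reads in Pokkali salinity and 16 in Pokkali control. Listing depends on depth, and its part in these changes was not tested.

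The CG level of the ends changed by 0.98 and 1.64 points in the IR64 desiccation and salinity libraries, by -2.01 points in N22 under desiccation and by 1.31 points in Pokkali under salinity. Over mCs listed in all 7 libraries these changes shrank to 0.35, 0.64, -0.72 and -0.17 points, with the Pokkali value changing sign. The pooled CHH level of the ends changed by -1.19, -0.39, -0.51 and -1.78 points in the same order. Without sites beyond the 99th percentile of depth these values were 0.49, 2.72, -2.28 and 5.58 points.

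Over shared mCs, few bins of the ends differed between a stressed library and its control, and the number depended on that choice. In IR64 desiccation 30 of 37456 tested bins (0.0801%) were DMRs, against 0.0628% in the genome, and in IR64 salinity 22 of 37119 (0.0593%), against 0.0528%. In N22 desiccation 41 of 38142 (0.107%) were called, against 0.0948%, and in Pokkali salinity 144 of 37831 (0.381%), against 0.287%. Of the 14 ends, 8, 6, 7 and 11 lay above the genome in these 4 comparisons. Over each library's own listed mCs, shared or not, 695, 676, 798 and 1124 bins of the ends were called (1.78%, 1.75%, 2.03% and 2.85%), and each share lay below the genome (1.926%, 1.931%, 2.18% and 2.96%). Over the same 9 ways of calling and 4 comparisons the ends were above the genome in 23 of 36. The direction was uneven. In IR64 desiccation 22 of 30 were higher in the stressed library, with 0.038% of tested bins higher and 0.0247% lower in the genome. In IR64 salinity 13 of 22 were higher, with 0.0331% and 0.0197% in the genome. In N22 desiccation 4 of 41 were higher in the stressed library, with 0.0069% of tested bins higher and 0.0879% lower in the genome. In Pokkali salinity 129 of 144 were higher, with 0.237% higher and 0.0502% lower in the genome, and the majority was higher in all 14 ends. With CHH mCs alone 207 of 212 DMRs were higher in Pokkali salinity (97.6%). With CG mCs alone 10 of 21 were (47.6%, 95% Wilson interval 28.3% to 67.6%), and 35.9% of the CG DMRs in the genome. The CHH count was not set against a genome share. Median depth at CHH mCs was 11 reads in Pokkali salinity and 16 in Pokkali control, in ends and interior alike. CHH mCs of low level are called only where reads are many, and the part of depth in the CHH direction was not tested. In the interior too, the mean over single CHH mCs was higher in Pokkali salinity, at 46.04% against 40.29%.

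The largest of these stress differences were smaller than those between cultivars. In chr2:75501-75600 the level over 8 shared mCs, 6 of them CHH, was 75.5% of 110 reads in IR64 desiccation and 31.1% of 74 reads in IR64 control (44.4 points, Fisher's exact test, adjusted p = 1.1e-05). In chr8:16201-16300 it was 34.3% of 364 reads and 71.3% of 167 reads over 24 shared mCs (-36.9 points, Fisher's exact test, adjusted p = 2.1e-11). Depth at this bin differed between these libraries, and the level of N22 and Pokkali libraries there ran from 54.6% to 81.9%. For IR64 salinity, chr6:31201201-31201300 was higher by 32.4 points and chr5:29746601-29746700, with CHH mCs alone, was lower by -30.7 points (Fisher's exact test, adjusted p = 0.0052 and 0.0040). Neither call held over each library's own mCs, where the differences were 15.2 and -16.0 points (Fisher's exact test, adjusted p = 0.12 and 0.10). The first of these bins was also not called at a minimum of 10 reads or in CG mCs alone.

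In N22 desiccation the bin chr8:9401-9500, with nearly all of its mCs in CHH, was higher by 21.5 points and chr5:871201-871300 was lower by -39.1 points (Fisher's exact test, adjusted p = 0.0010 and 9.3e-05). In the latter, the 5 IR64 and Pokkali libraries lay between 62.7% and 72.2% over all listed mCs and N22 control at 64.7%, so that N22 desiccation at 30% stood apart from all 6. The call was lost at a minimum of 10 reads, where the difference was -35.0 points (Fisher's exact test, adjusted p = 0.0114), and in CG or CHG mCs alone. In Pokkali salinity chr5:29033101-29033200 was higher by 47.0 points (67.9% of 53 reads against 20.9% of 91 reads, Fisher's exact test, adjusted p = 3.8e-05). The Pokkali salinity value of this bin over all listed mCs, 62.7%, lay within the range of the IR64 libraries, 56.9% to 64.1%, and Pokkali control at 22.95% stood apart. In chr2:35433801-35433900, with 4 CG mCs in both Pokkali libraries, Pokkali salinity lay at 51.1% and the other 6 libraries at 83.8% to 97.3% (-32.7 points, Fisher's exact test, adjusted p = 0.0026).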

How the data were processed

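Bisulphite libraries of 7 groups were analysed, 1 library each. For the control libraries the authors aligned reads to MSU release 7 with Bismark, kept unique and non-clonal reads, and called mCs in methylKit output by a binomial test against the non-conversion rate (p 0.001, at least 5 reads). How the stressed libraries were processed is not given in the sources used here. The deposited read depth is a count per cytosine and strand, and the deposited methylation level is a percent of these reads. Only mCs are listed.

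Methylated reads were recomputed as depth multiplied by level. All values were computed in Python 3.11.15 with numpy 2.4.6, scipy 1.17.1 and numba 0.67.0. Ends and interior, and outer and inner stretches, were compared per library with an exact sign-flip test (smallest p 0.015625), and cultivars with an exact permutation test over 210 assignments. Adjustment was by the Benjamini-Hochberg method within families of 12, 6 and 9 tests. DMRs were called over 12 chromosomes with Fisher's exact test as the authors describe, with Benjamini-Hochberg in place of their correction, on reads over shared mCs. Wilson intervals at 95% cover counting error only. The DMR step was tested on simulated data with counts drawn independently. These data could therefore not show the effect of reads counted at several mCs or of spread between libraries. Bins were named by the rule stated in the text, and ends by the 3 highest and 3 lowest median CG numbers and the 2 highest and 2 lowest DMR shares. The chromosome ends, lists and tests were chosen with earlier results of these data known. Alternatives covered the minimum depth, a common error rate of 1%, mCs listed in all 7 libraries, removal of deep sites, end lengths of 0.5 and 2 Mb, the contexts and thresholds of DMRs, and each library left out. Leaving out 2 ends was chosen after seeing the data. No sequence or gene annotation of this release was used here.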

Additional observations from a re-analysis of the deposited data

Results flagged for a closer look

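Under the same stress, a sensitive and a tolerant cultivar went opposite ways in the mC number of the ends. After desiccation this number was higher than in the control library by 9.96% in IR64 and changed by -9.72% in N22, over all contexts. By context the changes of the 2 cultivars were 11.4% and -11.7% in CG, 12.1% and -12.6% in CHG and 5.83% and -2.59% in CHH. The CG level changed by 0.98 points in IR64 and -2.01 points in N22, and the CHG level by 0.63 and -2.27 points. After salinity the ends of IR64 and Pokkali differed from their controls in mC number by 3.63% and -11.5% over all contexts, 6.10% and -7.97% in CG, and 4.71% and -8.89% in CHG. Each value compares 1 library with 1 library, and the difference between cultivars was not tested. Listing depends on depth, which differed between these libraries, and its part was not tested. The same opposite signs were found in the interior, and at a minimum of 10 reads the IR64 salinity change had the sign of the Pokkali change. With a common error rate of 1% the opposite signs over all contexts held, with 9.44% and -13.0% under desiccation and 4.92% and -12.4% under salinity.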

How the results depend on the processing

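The lower CHG density of the ends and the rise of CG and CHG density to the tip kept their direction and their side of the threshold under every alternative run. The excess of CG-only bins kept both with each library left out, the only alternative run for it. Among values tested over libraries, 305 of 369 alternative values did so. The rest are given here, for each the cause was not tested unless stated, and adjusted p-values are by the exact tests of the report. What limits all values is that each group is 1 library, that only called mCs are listed, and that depth differs between libraries and regions. Regions were compared within each library. No paired analysis was possible because each group holds 1 library, so that no replicate numbers pair libraries of different groups.

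For ends against interior, end lengths of 0.5 Mb gave a log2 density of -0.026 in CG and 0.013 in CHH, and levels of 1.53 points in CG and 0.57 in CHG. End lengths of 2 Mb gave levels of -0.81 points in CG and -2.66 in CHH and a CG share of -0.44 points. Against the rest of all 12 chromosomes the values were 2.32 points (CG level), 3.33 points (CHG level), -5.83 points (CHH level), 0.31 points (CG share) and 0.028 (CHH log2 density). Over mCs listed in all 7 libraries they were -0.11 points (CG level), -3.05 points (CHG level) and 0.037 (CHH log2 density). Without deep sites the CG level was -1.30 points and the CHH level 1.19, and by mean site level -1.29 and 0.48. A common error rate gave a CHG level of -0.47 points. Without the last end of chromosome 5 and the first end of chromosome 6 the levels were -1.22 (CG), -0.023 (CHG) and 3.79 points (CHH). Leaving out each library gave CHH levels of -9.45 to -6.94 points, where the smallest p that 6 libraries allow is 0.03125. Leaving out each library gave CHG levels of -0.0046 points, without Pokkali control, to 0.16 points.

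For the gradient, mCs listed in all 7 libraries gave a CHG level of -4.98 points and a CHH log2 density of -0.087. The last ends alone gave 1.84 points and 0.043. Without deep sites the CHH log2 density was 0.055, and without the 2 ends 0.016.

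For cultivars, the percent of the sum of squares in CG level was 86.2 with a common error rate, 91.3 without deep sites and 90.5 without the 2 ends, each with an adjusted p of 0.0857, and 75.8 to 90.5 leaving out each library. In CHH level these were 96.8, 12.4, 21.1 and 98.4 to 99.6. For the ratio of ends to interior it rose to 82.5 (CG) and 89.6 (CHG) at a minimum of 10 reads, to 94.1, 91.6 and 98.8 in CG, CHG and CHH with ends of 0.5 Mb, and to 96.4 in CHG with ends of 2 Mb. In CHG level it was 97.4 over mCs listed in all 7 libraries. Leaving out each library gave 91.3 to 96.6 for the CHG ratio and 12.4 to 88.0 for CHH density, with an adjusted p of 0.05 for both without Pokkali salinity. Counts over mCs listed in all 7 libraries are equal by construction and gave no value for density or for mC number under stress.

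DMR numbers fall with fewer mCs per bin or a stricter difference. In the order N22 and IR64 control, Pokkali and IR64 control, N22 and Pokkali control, N22 and IR64 desiccation, Pokkali and IR64 salinity, they were 439, 297, 611, 399 and 217 with CHG alone, 330, 204, 432, 203 and 209 with CHH alone, and 837, 1215, 1397, 756 and 997 at 30 points. Each library's own mCs gave 2859, 4066, 2488 and 2427 in all but the second of these. Of the Pokkali and IR64 salinity DMRs with CHH alone, 93.3% were higher in Pokkali. For IR64 desiccation, IR64 salinity, N22 desiccation and Pokkali salinity against control, each library's own mCs gave 695, 676, 798 and 1124 DMRs, CG alone 8, 0, 8 and 21, CHG alone 0, 1, 7 and 0, and 30 points 8, 3, 6 and 33. CHH alone gave 43 for IR64 salinity and 74 for N22 desiccation, and a minimum of 10 reads gave 18 for IR64 desiccation and 80 for Pokkali salinity. In Pokkali salinity 47.6% of DMRs with CG alone were higher. Alternatives that left a named bin with fewer than 3 mCs gave no value and were not counted. Among bins between cultivars, chr2:35500001-35500100, chr1:42575101-42575200 and chr2:35051901-35052000 had no value with an error rate of 1%. The bin chr3:35595001-35595100 had none at a minimum of 10 reads. Of 103 alternative values of named bins, 94 kept the call. The 9 that did not were all in stress bins: chr8:16201-16300 in CHG alone, chr6:31201201-31201300 at 10 reads, in CG alone and over own mCs, chr5:29746601-29746700 over own mCs, chr8:9401-9500 at 30 points, and chr5:871201-871300 at 10 reads and in CG or CHG alone.

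The change of mC number in IR64 desiccation, IR64 salinity, N22 desiccation and Pokkali salinity was 7.14%, -4.51%, -11.2% and -28.7% at a minimum of 10 reads, and 9.44%, 4.92%, -13.0% and -12.4% with a common error rate. It was 11.7%, 4.17%, -11.0% and -10.1% with ends of 0.5 Mb. With ends of 2 Mb it was 9.33%, 3.09% and -12.2% in IR64 desiccation, IR64 salinity and Pokkali salinity, and without deep sites -9.36% in N22 and -11.9% in Pokkali. For IR64 salinity the CG and CHG numbers turned to -3.11% and -4.78% at 10 reads, and the CHH number to 1.61% with a common error rate. The CHH level change turned to 0.49, 2.72 and 5.58 points without deep sites in IR64 desiccation, IR64 salinity and Pokkali salinity, and to 0.23 and 0.51 points with ends of 2 Mb in the salinity libraries. In N22 desiccation it turned to 2.20 points with a common error rate, 1.19 over mCs listed in all 7 libraries and 0.81 with ends of 0.5 Mb. The CG level change of Pokkali salinity turned to -0.17 points over mCs listed in all 7 libraries.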
